A study of Mus musculus with 12 samples.

Results

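The S phase and mitosis genes described here are 54 genes of the cell division cycle, listed by name, with earlier results of these data known when the list was chosen. The list holds 23 S phase genes and 31 genes of G2 and mitosis, out of 27998 gene names in the count tables. All 54 were present in the tables, and all 54 passed the filter on low counts over all cells. S phase is the stage in which a cell copies its DNA. The MCM helicase opens the double strand at origins, the PCNA clamp holds the polymerases on the template, and ribonucleotide reductase and thymidylate synthase supply the nucleotides. In G2 and mitosis the kinase CDK1 with cyclins A and B drives the cell into division, the spindle checkpoint holds sister chromatids together until all are attached, and CDC20 then turns on the complex that lets them part. Blood progenitors divide often on their way to mature cells, and the last granulocytic and erythroid stages leave the cycle for good.

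The values are single-cell transcript counts (10x Genomics, 3′ kit) from mouse bone marrow cells enriched magnetically for c-Kit, a receptor of stem and progenitor cells. Mice were on a C57BL/6 background and, by the labels, 8 to 12 weeks old when injected with pIpC (the study's methods give a younger age), so they were older at sampling. All received 5 injections of pIpC, a synthetic double-stranded RNA that induces interferon and so the interferon-responsive promoter of Mx1-Cre. The study asked how activated NRas and loss of Ezh2, a Polycomb histone methyltransferase, change blood progenitors alone and together. WT mice were negative for Mx1-Cre, E2-KO mice carried floxed Ezh2 with Mx1-Cre, G12D mice carried the LSL-NRas G12D knock-in allele with Mx1-Cre, and G12D/E2-KO mice (the double mutant) carried both, so that the recombinase itself also separates WT from every mutant. Mx1-Cre is active in many cell types of the marrow and outside it. Each of the 4 genotypes was sampled once at each of 3 times after pIpC, at 2 weeks for T1, 2 months for T2 and 4 months for T3, giving 12 libraries.

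UMIs (unique molecular identifiers) tag single captured transcripts, and CPM below means a gene's UMIs per 1000000 UMIs in its library or, for a class, in that class within its library. Each molecule is counted once near its 3′ end, so CPM of different genes compare molecules without a correction for length. The libraries held 12.6 M to 23.6 M UMIs (M, 1000000), with median depths of 3780 to 6976 UMIs per cell. In the G12D T1 table, 2896 of 5648 cells (51.3%) matched cells of G12D/E2-KO T1, of which 1494 were equal in every gene. No other pair of libraries shared a cell. The labels do not say to which library these cells belong. They were counted in G12D/E2-KO T1 alone, of which they made up 95.1% and where Ezh2 was low, which left 32701 of 35597 cells. Ezh2 itself stood at 103 to 133 CPM in WT, 27.7 to 34.6 in the E2-KO libraries, 81.7 to 103 in the G12D libraries and 20.7 to 25.3 in the double mutant, low in every library labelled as an Ezh2 knockout. At T1 the levels of G12D and G12D/E2-KO are no independent check of those labels, since Ezh2 helped to decide where the shared cells were counted. Xist, the transcript of the inactive X chromosome, stood at 1296 to 1357 CPM in the T3 libraries of WT, E2-KO and G12D while 0.608 CPM was the highest value among the remaining 9, so that sex moved with T3 and, at T3, with G12D/E2-KO.

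Cells were put into classes by marker genes that include no cell cycle gene, and each class name stands for cells resembling that type. The 13 classes took up all but 4152 cells (12.7%), of which 3409 lay near the limit between classes. A class was tested if each of the 12 libraries had 20 or more of its cells, which left 7: stem cells with multipotent progenitors (HSC/MPP), granulocyte-macrophage progenitors joined with early granulocytic cells (GMP/early GN), late granulocytes (late GN), promonocytes (ProMo), megakaryocyte-erythroid progenitors (MEP), early erythroid cells (EryP/early Ery) and late erythroid cells (late Ery).

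The promoters of both lists are shown first, since the lists parted in the data and E2F factors and the DREAM complex are known to act on such genes through short DNA words. RefSeq promoter windows (GRCm38.p6, 250 bases before to 50 bases after the start) were at hand for 46 of the 54 genes, 20 of S phase and 26 of mitosis. Searched on both strands, the E2F words were TTTCCCGC, TTTCGCGC, TTTGCCGC and TTTGGCGC, the CHR word (cell cycle genes homology region) was TTTGAA, and the CCAAT box was CCAAT. A gene with more than 1 window was counted once. An E2F word was found for 10 of 20 S phase genes (50%) and 1 of 26 mitotic genes (3.85%), against 2.6% of 27025 genes. The CHR word was found for 3 of 20 S phase genes (15%) and 20 of 26 mitotic genes (76.9%), against 20.2% of all genes. Both CHR and CCAAT words were found for 18 of 26 mitotic genes (69.2%), 2 of 20 S phase genes (10.0%) and 8.97% of all genes. A match is a description of the letters, not of binding. The Mcm5 window (chr8:75109259-75109558, plus strand) has its E2F words in capitals, 2 words that overlap on opposite strands. Cdk1 (chr10:69352863-69353162, minus strand) and Cdc20 (chr4:118437294-118437593, minus strand) have CHR words in capitals. Cdk1 was also the only mitotic member with an E2F word, left here in lower case.

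Mcm5 promoter: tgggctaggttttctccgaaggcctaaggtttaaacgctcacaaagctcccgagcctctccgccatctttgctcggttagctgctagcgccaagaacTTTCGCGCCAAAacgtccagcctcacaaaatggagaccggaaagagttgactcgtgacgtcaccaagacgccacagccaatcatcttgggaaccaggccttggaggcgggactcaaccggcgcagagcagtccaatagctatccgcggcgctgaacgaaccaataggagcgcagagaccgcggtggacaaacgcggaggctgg
Cdk1 promoter: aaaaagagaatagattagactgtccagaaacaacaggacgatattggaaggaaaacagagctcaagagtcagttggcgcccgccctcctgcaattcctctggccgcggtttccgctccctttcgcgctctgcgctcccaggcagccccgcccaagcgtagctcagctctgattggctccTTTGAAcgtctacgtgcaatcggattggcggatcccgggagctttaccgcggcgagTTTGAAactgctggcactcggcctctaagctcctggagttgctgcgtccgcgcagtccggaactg
Cdc20 promoter: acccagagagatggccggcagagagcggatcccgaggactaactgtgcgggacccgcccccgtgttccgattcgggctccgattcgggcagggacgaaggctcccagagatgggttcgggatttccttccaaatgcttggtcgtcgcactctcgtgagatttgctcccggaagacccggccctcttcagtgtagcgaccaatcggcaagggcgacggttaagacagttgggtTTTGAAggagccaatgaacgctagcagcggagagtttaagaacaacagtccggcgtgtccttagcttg

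Another 3 words are shown in 28 bases of sequence each, from anchor genes whose levels follow: the E2F word of Hells (chr19:38930918-38930945, plus strand) and a CHR word each of Mki67 (chr7:135716479-135716506, minus strand) and Top2a (chr11:99024352-99024379, minus strand), in capitals. The windows of Rrm2, Pcna, Tyms and Cdc45 held no E2F word, and those of Ccnb1 and Birc5 held no CHR word.

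Hells: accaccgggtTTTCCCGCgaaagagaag
Mki67: tagcgccagaaTTTGAAccgccgttttg
Top2a: tattggtccatTTTGAAgattctcccgc

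Both lists were first read in the 7 tested classes. The summed CPM of the mitotic genes divided by that of the S phase genes does not depend on how a library is scaled, and it was higher in late GN and late Ery than in the other 5 classes tested. It ran, as lowest, median and highest of 12 libraries, from 2.58 through 3.19 to 3.61 in late GN and from 1.11 through 1.28 to 1.48 in GMP/early GN. In late Ery it ran from 2.17 through 2.46 to 3.26, and in EryP/early Ery from 1.20 through 1.52 to 1.61. Late GN did not overlap with GMP/early GN, nor late Ery with EryP/early Ery, and in each of these lineages the later class was higher in 12 of 12 libraries. The median log2 ratio between the later and the earlier class was 1.01 in granulocytes and 0.61 in erythroid cells. HSC/MPP (1.05, 1.19 and 1.80), ProMo (0.997, 1.22 and 1.65) and MEP (1.06, 1.45 and 1.74) overlapped with each other and with GMP/early GN and EryP/early Ery. Among classes with too few cells to be tested, B lymphoid cells (1.52, 2.23 and 3.54 over 11 libraries), macrophages (1.51, 1.99 and 2.60 over 9) and megakaryocytic cells (1.04, 1.60 and 2.32 over 11) reached into the range of late GN or late Ery.

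The S phase sum itself was low in late GN, at 910, 1209 and 1525 CPM as lowest, median and highest, against 1532, 1932 and 2052 CPM in GMP/early GN. These ranges did not overlap. The mitotic sum was 3030, 3678 and 4395 CPM in late GN and 2058, 2398 and 2776 CPM in GMP/early GN, again without overlap but in the other direction. In late Ery the S phase sum (1671, 2454 and 2832 CPM) overlapped with that of EryP/early Ery (1713, 2420 and 2732 CPM), and the mitotic sum (4900, 5853 and 7113 CPM) lay above it (2689, 3610 and 3930 CPM). Haemoglobin transcripts took 42.5 to 60.8% of late Ery UMIs, and late granule and neutrophil marker transcripts took 34.4 to 50.2% of late GN UMIs. These shares lower the CPM of every other gene in those classes.

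Single genes were tested between classes with edgeR's quasi-likelihood test on counts summed per library and class, with library as a block and TMM scaling, over 9944 genes and with Benjamini-Hochberg adjustment. From GMP/early GN to late GN, 78.4% of all genes tested passed an adjusted p of 0.05 (38% higher and 40.4% lower), so the background of calls was high. All 31 mitotic genes were called higher, with a median log2 change of 1.27, while 13 of 23 S phase genes were called lower and 6 higher, with a median of -0.27. The median over all genes was -0.03. With library totals alone in place of TMM, which moved the median of all genes to -0.78, 27 mitotic genes were higher and 0 lower, and 1 S phase gene was higher and 20 lower.

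Among the S phase genes of that step, 8 of the 9 that belong to the helicase and its loading were called lower, where 40.4% of all genes were, and Cdc45 was called higher with TMM. These 9 were grouped by role by hand and not tested as a set. Mcm3, an MCM subunit, was at 65.6, 96.3 and 118 CPM (lowest, median and highest) in GMP/early GN and at 21.3, 29.1 and 46.5 CPM in late GN. It fell by 0.88 on the log2 scale (SE 0.07, edgeR). Hells, a chromatin remodeler of dividing cells, was at 57.4, 77.2 and 99.0 CPM in GMP/early GN and 15.5, 20.2 and 40.6 CPM in late GN. Its classes did not overlap, and it fell by 1.13 (SE 0.08). Ung, which removes uracil from DNA, went from 20.6, 31.8 and 44.4 CPM to 0, 1.95 and 3.20 CPM, with a log2 change of -3.17 (SE 0.17). Mcm5 had a CPM of 82.2, 106 and 135 in GMP/early GN and 37.2, 49.5 and 83.2 in late GN, which meet at the ends, and fell by 0.27 (SE 0.07). Pcna (log2 change 0.10, SE 0.07, adjusted p 0.221), Uhrf1 (-0.07, adjusted p 0.392), Cdca7 (-0.13, adjusted p 0.0966) and Chaf1b (-0.20, adjusted p 0.0723) did not pass with TMM. The CPM of each was still lower in 12 of 12 libraries, with median log2 ratios of -0.61, -0.83, -0.92 and -0.79 in that order.

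Of the 3 genes of nucleotide supply, all were called higher with TMM, but only Rrm2 was also higher with library totals alone. Rrm2, the regulated subunit of ribonucleotide reductase, was at 130, 208 and 240 CPM in GMP/early GN and at 196, 241 and 325 CPM in late GN, higher in 12 of 12 libraries though the ranges overlapped. It rose by 1.05 (SE 0.07), and by 0.32 (SE 0.08) with library totals alone. Tyms, thymidylate synthase, rose by 0.66 (SE 0.08) with TMM, but its direction turned with library totals alone (-0.09), as did that of Cdc45 (0.53 with TMM, -0.22 with totals), and its CPM was higher in 7 libraries and lower in 5. Rrm1 had a change of 0.27 with TMM and -0.47 with totals alone, and its CPM was lower in 12 of 12 libraries. Clspn, a checkpoint adaptor, had 0.39 and -0.35, with a lower CPM in 10 of 12. Slbp, which binds the end of histone mRNA, had 0.83 and 0.10 (adjusted p 0.246 with totals alone), with a CPM higher in 6 libraries and lower in 6.

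Of the mitotic genes of that step, Ccnb1, Bub1, Ttk and Smc4 were the 4 whose call was lost with library totals alone. Ube2c, the ubiquitin-conjugating enzyme of the anaphase-promoting complex, had the largest rise of the 54, from 159, 238 and 303 CPM in GMP/early GN to 344, 527 and 665 CPM in late GN (log2 change 1.94, SE 0.09). Nusap1, a spindle microtubule protein, went from 40.7, 55.9 and 71.2 CPM to 91.6, 114 and 138 CPM (log2 change 1.80). Neither gene's ranges overlapped. Birc5, the survivin subunit of the chromosomal passenger complex, went from 214, 246 and 335 CPM to 356, 440 and 520 CPM (1.5, SE 0.06), and Cdk1 from 57.2, 95.3 and 112 CPM to 114, 141 and 184 CPM (1.42). Mki67, which coats mitotic chromosomes, was at 92.4, 119 and 175 CPM and then at 157, 180 and 329 CPM (1.48), with overlapping ranges but higher in 12 of 12 libraries. Further changes were those of Kif23 (1.64), Ccnb2 (1.62), Cdc20 (1.37), and Top2a (1.05). Ccnb1 had a change of 0.82 with TMM and 0.08 with totals alone (adjusted p 0.385), with a CPM higher in 9 libraries and lower in 3. The checkpoint kinase Bub1 had 0.76 and 0.02 (adjusted p 0.899), with a CPM higher in 8 and lower in 4, and the checkpoint kinase Ttk had 0.82 and 0.08 (adjusted p 0.484), higher in 6 and lower in 6.

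From EryP/early Ery to late Ery, where 70.2% of all genes tested were called (34.6% higher and 35.6% lower), 31 of 31 mitotic genes were called higher with a median of 1.81, and 19 of 23 S phase genes were called higher and 3 lower with a median of 0.83. The S phase count rested on the scaling. With library totals alone, where the median of all genes was -1.28, 4 S phase genes were higher and 15 lower, and 25 mitotic genes were higher and 2 lower. With TMM kept, leaving the haemoglobin and late granulocyte genes out of the counts gave 19 and 3 again. Totals alone without these genes were not run. Rrm2 was at 109, 194 and 232 CPM in EryP/early Ery and 353, 512 and 611 CPM in late Ery, a non-overlapping rise of 2.62 (SE 0.07) that stayed at 1.40 (SE 0.09) with totals alone. Hells (-0.43, SE 0.10), Ung (-0.55, SE 0.19) and Cdca7 (-0.84) fell. Mcm5 had a TMM change of 0.50 and a change of -0.76 with totals alone, and its CPM was lower in 12 of 12 libraries (91.7, 112 and 144 CPM, then 43.5, 74.9 and 89.5 CPM). Cdc45 turned as well, from 1.12 to -0.15.

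Among the mitotic genes, Nusap1 (2.96, SE 0.08), Ube2c (2.86), Kif23 (2.54), Mki67 (2.46), Cdk1 (2.30) and Birc5 (2.20) were among those with large rises in the late erythroid step. Mki67 was at 135, 193 and 230 CPM in EryP/early Ery and at 360, 457 and 549 CPM in late Ery. Birc5 was at 271, 415 and 462 CPM, then at 600, 781 and 1018 CPM. Neither gene's ranges overlapped.

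**Figure D1:**
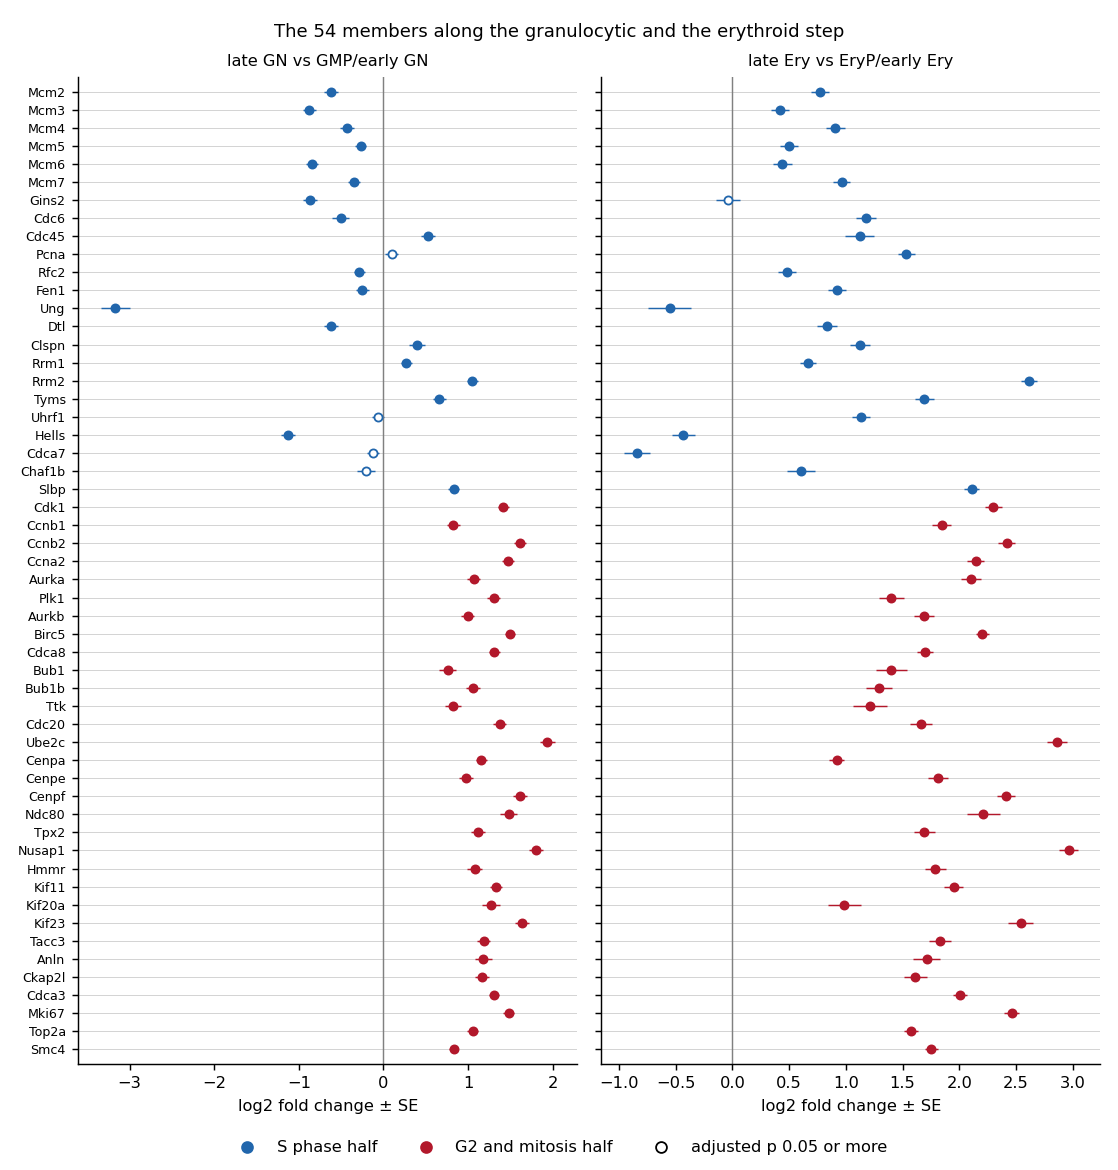
Log2 change of each of the 54 genes from GMP/early GN to late GN and from EryP/early Ery to late Ery (points, edgeR with TMM, bars 1 SE, 12 libraries; open circles have an adjusted p of 0.05 or more). The mitotic genes lie above 0 in both steps, and the S phase genes lie on both sides of it in the granulocytic step.

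The steps out of HSC/MPP and the step to ProMo were read next. From HSC/MPP to GMP/early GN, where 64.2% of genes were called (30.9% higher and 33.3% lower), 15 S phase genes were higher and 4 lower, with a median of 0.27, and 20 mitotic genes were higher and 3 lower, with a median of 0.40. With library totals alone these counts were 8 and 7, and 13 and 5. The S phase counts were 12 and 7 with RLE factors, and 15 and 7 without G12D/E2-KO T3. Rrm2 (2.06), Cdc45 (1.56), Plk1, a mitotic kinase (1.07), and Tacc3 (1.01) led, and Cenpf (-0.59) and Top2a (-0.42) fell. From HSC/MPP to EryP/early Ery (73.7% called, 36.1% higher and 37.6% lower), 19 S phase genes were higher and 3 lower, with a median of 0.65, and 28 mitotic genes were higher and 2 lower, with a median of 0.62. The 2 lower were 1 without WT T3, any E2-KO library, G12D T2 or G12D/E2-KO T3, and 0 with clusters as classes. Rrm2 (1.88), the origin licensing factor Cdc6 (1.62), the centromeric histone Cenpa (1.59), Rrm1 (1.42) and Birc5 (1.25) led here, while Rfc2 (-0.66), Kif23 (-0.62), Cdca7 (-0.49), Ung (-0.47) and Ndc80 (-0.35) fell.

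From HSC/MPP to MEP (29.6% called, 13.6% higher and 16% lower) 0 S phase genes were higher and 5 lower by edgeR, and 3 mitotic genes were higher (Mki67, Cenpa and Anln) and 2 lower (Kif23 and Top2a). From GMP/early GN to ProMo (42.3% called, 21.4% higher and 20.9% lower) 9 S phase genes were higher and 1 lower, and 5 mitotic genes were higher and 5 lower. The mitotic result rested on the class definition: with clusters as classes 0 mitotic genes were higher and 19 lower. The S phase count fell to 3 without G12D T3. The mitotic count fell to 3 higher without WT T3, without E2-KO T3 or without G12D T3. The mitotic genes called lower were 8 without G12D/E2-KO T3, 3 without G12D T1, 9 (against 4 higher) with cells as deposited, and 2 (against 8 higher) with library totals alone. For MEP the mitotic counts were 2 higher and 12 lower with clusters as classes, 2 higher and 3 lower without G12D/E2-KO T2, and 3 higher and 1 lower without WT T3. The S phase counts of MEP were 1 higher and 10 lower with clusters as classes.

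The share of cells with 3 or more genes of a list detected gave a second reading that does not use summed counts. Cells were thinned to 2000 UMIs each, which left out 747 cells (2.3%). The median over libraries of the share with 3 or more S phase genes was 75.3% in EryP/early Ery, 65.8% in ProMo, 63.7% in GMP/early GN, 49.4% in HSC/MPP, 45.8% in MEP, 45.6% in late Ery and 30.05% in late GN. With 3 or more mitotic genes it was 83.5%, 58.9%, 62.4%, 35.3%, 35.2%, 65.3% and 66.6% in the same order. By these medians late GN had the lowest S phase share of the 7 classes and a mitotic share exceeded only in EryP/early Ery. In G12D/E2-KO T3 the S phase share was lower in late Ery (34.3%) than in late GN (46.0%). In late GN a median of 42.0% of cells had 3 or more mitotic genes but fewer than 3 S phase genes. In the other tested classes this median ran from 17.5% (HSC/MPP) to 28.4% (GMP/early GN). The mitotic list is the longer, at 31 genes against 23.

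In libraries, late GN minus GMP/early GN had a median of -31.1 ± 9.12 percentage points for S phase genes (SD, n = 12, higher in 0 of 12 libraries) and 4.84 ± 7.19 points for mitotic genes (higher in 9 of 12). The mitotic direction rested on the settings, at -3.60 points with 2 or more genes, 13.2 with 4 or more and -16.8 without thinning. Late Ery minus EryP/early Ery was -27.6 ± 10.2 points for S phase genes and -19.0 ± 8.75 points for mitotic genes, higher in 0 of 12 for both. In late Ery the haemoglobin UMIs use up part of the 2000. In late GN the late granule and neutrophil marker UMIs do so, at 34.4 to 50.2% of UMIs against 2.91 to 7.25% in GMP/early GN. The part of this in the share differences was not tested. Without thinning the medians were 53.6% and 72.9% in late GN against 96.3% and 92.5% in GMP/early GN, and 51.3% and 71.4% in late Ery against 98.7% and 98.0% in EryP/early Ery. The median depth of EryP/early Ery cells was 13080 UMIs.

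**Figure D2:**
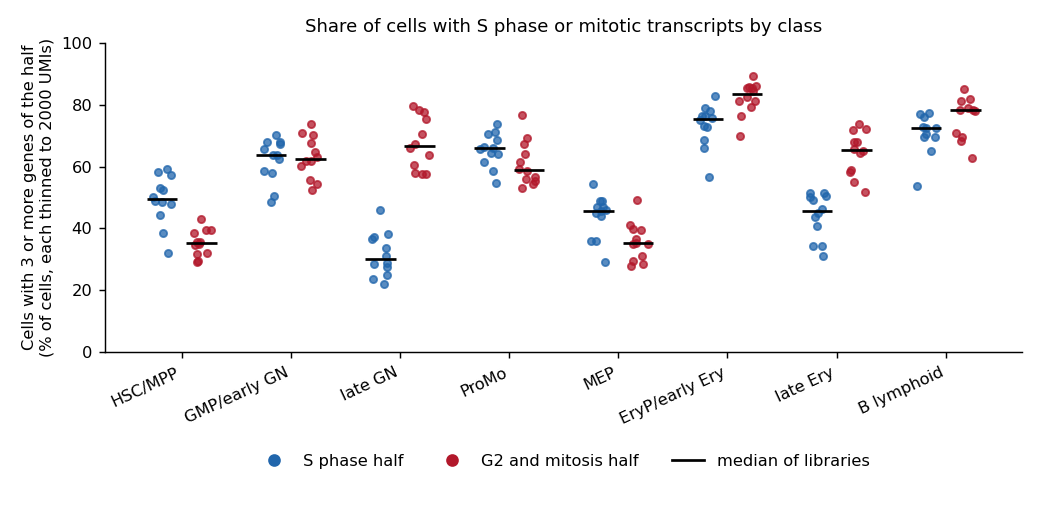
Share of cells (percent, thinned to 2000 UMIs) with 3 or more S phase or mitotic genes detected, per class (each point 1 library, bars the median). The median S phase share is lowest in late GN, at 30.05%, where the median mitotic share is 66.6%, and single libraries of late GN and late Ery overlap.

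Within late GN the median S phase share fell at each step of maturity, while the mitotic share fell only above the 2 lowest bins. Maturity was read from the summed UMIs of Retnlg and Mmp9, genes of ripe neutrophils, per 10000 UMIs of a cell. From 0 through above 0 to 5, above 5 to 15 and above 15, the median S phase share over libraries was 39.0%, 30.58%, 11.2% and 3.58%. The mitotic share was 75.05%, 74.53%, 47.2% and 11.4%. Between the 2 lowest bins the median mitotic sum rose from 3782 to 4116 CPM. Ripe neutrophils do not divide, so the cells above 15 were read as a class meant to lack these transcripts. Their median depth was 2907 to 3278 UMIs in WT, against 4426 to 5334 UMIs in all WT late GN cells. Pooled, the shares were 23 of 672 cells (3.42%, exact 95% interval 2.18 to 5.09%) for S phase and 90 of 672 cells (13.4%, 10.9 to 16.2%) for mitotic genes. The interval covers counting error only. The median shares of the 7 classes lay above this level. By library, however, the mitotic share above 15 ran from 5.26 to 32.0% in the 8 libraries with at least 20 such cells, and its top lay above the lowest library of HSC/MPP (29.2%) and of MEP (28%). How much of this level is free RNA was not tested. Above 15, the mitotic sum was 827, 558 and 1222 CPM at T1, T2 and T3 in WT and 2004, 2125 and 2022 CPM in G12D/E2-KO. It was 449 and 456 CPM at G12D T1 and T3 and 591 CPM at E2-KO T3. The G12D/E2-KO values lay within the range of HSC/MPP (1835 to 2587 CPM). The pooled cells, which mix the genotypes, were thus no class without mitotic transcripts. WT and G12D/E2-KO did not overlap above 15. E2-KO T1, E2-KO T2 and G12D T2 held only 9, 10 and 16 such cells, so that the 4 genotypes could not be compared.

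**Figure D3:**
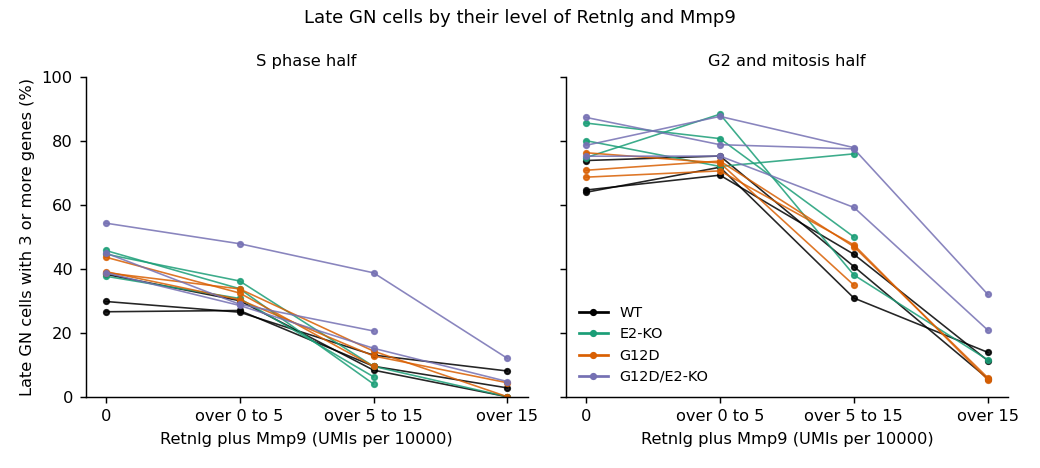
Share of late GN cells (percent, thinned to 2000 UMIs) with 3 or more S phase or mitotic genes, by Retnlg and Mmp9 UMIs per 10000 (lines are libraries coloured by genotype; bins with under 20 cells of a library are not drawn). The median mitotic share stays near 75% in the first 2 bins and both median shares fall in the last 2.

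The genotypes were compared next over all cells. In a sum over all cells, fewer cells of a type and less RNA per cell cannot be told apart, and late GN, the class poor in S phase transcripts, made up 26.0 to 35.2% of cells in WT, 9.1 to 13% in E2-KO, 31.3 to 35.3% in G12D, and, in order of time, 35.6%, 19.1% and 12.1% in the double mutant. The part of these shares in the all-cell values was not tested. The S phase sum at T1, T2 and T3 was 2049, 2056 and 1753 CPM in WT, 2206, 2287 and 2301 in the E2-KO libraries, 1691, 2051 and 1579 in the G12D libraries and 1706, 2009 and 1843 in the double mutant. All E2-KO libraries were above all others. The mitotic sum was 3500, 3569 and 3150 CPM in WT, 3632, 3602 and 3375 in the E2-KO libraries, 2928, 3369 and 2696 in the G12D libraries and 3245, 3149 and 2647 in the double mutant. E2-KO overlapped with WT, and lay above both genotypes with G12D. WT also overlapped with G12D and with the double mutant. The mitotic to S phase ratio was 1.75 ± 0.04 for WT, 1.56 ± 0.09 for E2-KO, 1.69 ± 0.05 with G12D alone and 1.64 ± 0.24 in the double mutant (SD, n = 3).

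**Figure D4:**
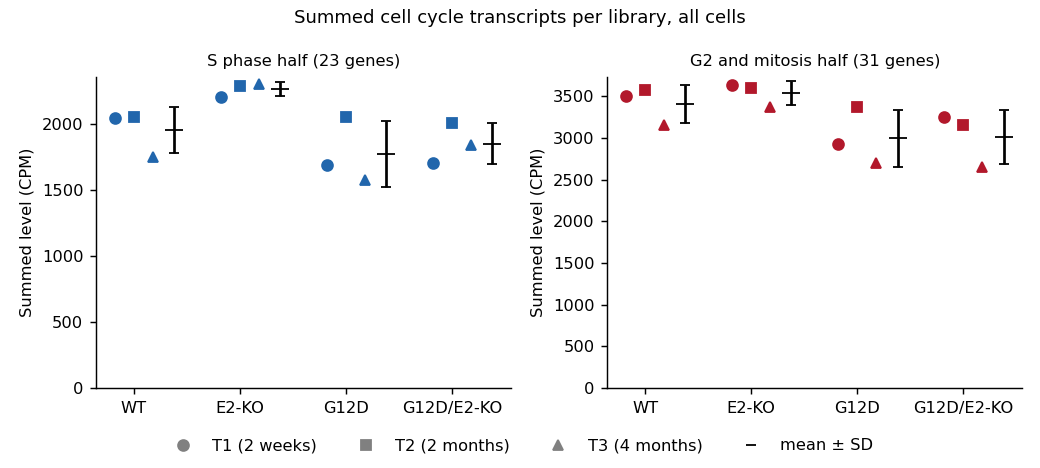
Summed CPM of the 23 S phase genes and of the 31 G2 and mitosis genes over all cells of each library (circles T1, squares T2, triangles T3; lines the mean and SD of 3 libraries per genotype). The 3 E2-KO libraries have the highest S phase sums, 2206 to 2301 CPM, and their mitotic sums overlap with those of WT but lie above those of G12D and of the double mutant.

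Each gene was tested over all cells with edgeR (genotype and time point as factors, 13143 genes tested, Benjamini-Hochberg over all of them). In E2-KO against WT 0 of 54 members passed an adjusted p of 0.05, where 1.65% of all genes did, while 9 (16.7%) had an unadjusted p under 0.05, near the 16.2% of all genes, and DESeq2 called 1, Pcna. Of the S phase genes 17 of 23 were higher, with a median log2 change of 0.22 against 0.0046 over all genes, and of the mitotic genes 21 of 31, with a median of 0.05. These medians rested on single libraries: without E2-KO T3 they were 0.03 for S phase and -0.06 for mitotic genes, and the mitotic median was -0.01 without WT T1 and 0.14 without E2-KO T2. Pcna (ENSMUSG00000027342, GRCm38.p6 chromosome 2, 132249162 to 132253314, minus strand) was at 118, 123 and 93.7 CPM at T1, T2 and T3 in WT and at 167, 166 and 180 CPM in E2-KO, with 114, 127 and 98.8 CPM in G12D and 124, 165 and 109 CPM in G12D/E2-KO. The E2-KO libraries lay above all others, and the change from WT was 0.63 (SE 0.16, adjusted p 0.082). Bub1b, a checkpoint kinase, had a log2 difference of 0.41 (SE 0.17, adjusted p 0.267).

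In G12D against WT 0 of 54 passed by edgeR, where 0.107% of all genes did, with 4 (7.41%) at an unadjusted p under 0.05, against 11.8% of all genes, and 0 by DESeq2. The direction was lower for 46 of 54. Hmmr, a spindle protein, was at 59.8, 49.1 and 51.5 CPM in WT, 41.0, 41.1 and 48.0 in the E2-KO libraries, 37.5, 36.5 and 34.4 in the G12D libraries and 42.3, 32.6 and 31.8 in the double mutant. WT lay above every mutant library. The G12D change was -0.53 (SE 0.16, adjusted p 0.304), and that of Clspn was -0.51 (SE 0.17, adjusted p 0.316).

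In G12D/E2-KO against WT 3 of 54 passed, all lower, where 5.71% of all genes passed and 1.99% did so lower. Tyms (ENSMUSG00000025747, GRCm38.p6 chromosome 5, 30058202 to 30073617, minus strand) was at 108, 92.8 and 78.7 CPM in WT, 79.8, 96.4 and 52.4 in the E2-KO libraries, 85.9, 94.99 and 59.7 in the G12D libraries and 77.1, 55.4 and 51.4 in the double mutant. The double mutant lay below WT in each library, a log2 difference of -0.66 from it (edgeR, SE 0.16 and adjusted p 0.0397). Chaf1b, a histone chaperone subunit, was at 22.2, 24.4 and 21.3 CPM in WT, 23.6, 23.6 and 16.1 in the E2-KO libraries, 17.5, 22.7 and 15.6 in the G12D libraries and 16.6, 13.8 and 16.2 in the double mutant, with a change of -0.60 (SE 0.15, adjusted p 0.0447). In all cells pooled Chaf1b was the least abundant S phase gene, though Cdc45 was lower in each WT library. Hmmr fell by 0.63 (SE 0.16, adjusted p 0.0469). The count was 0 without WT T1, WT T2, WT T3, E2-KO T1, G12D T1 or G12D/E2-KO T2, 1 (Tyms) without E2-KO T2 or G12D T3, and 6 without G12D/E2-KO T1. Here and below, the share of all genes called with a library left out is not given. Without G12D/E2-KO T3, Chaf1b and Fen1 were called and Tyms and Hmmr were not. The same calls came with a Xist covariate, where the mitotic median was -0.06 against -0.22 in the main fit. That covariate marks only WT, E2-KO and G12D at T3, so G12D/E2-KO T3 alone sets the T3 term. The library then adds nothing to the genotype contrasts, and the covariate is no second check beside leaving it out. At T3 Xist was at 1296 CPM in WT and 0.13 CPM in the double mutant. The call held in 9 of 21 alternatives for Tyms, 9 for Chaf1b and 6 for Hmmr. DESeq2 called 7, all lower, but its own share of all genes is not given.

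The mean Ezh2 effect (both Ezh2 knockouts against WT and G12D) called 1 member higher, where 7.02% of all genes were called and 5% were called higher. DESeq2, whose share of all genes is not given, called 8, of which Tyms, Rfc2 and Cdca8 were lower. Uhrf1, a reader of newly copied DNA methylation, was at 89.0, 82.1 and 76.8 CPM in WT, 110, 103 and 140 in the E2-KO libraries, 62.4, 83.8 and 74.5 in the G12D libraries and 79.7, 111 and 108 in the double mutant. The knockouts were higher except at G12D/E2-KO T1, with a change of 0.42 (SE 0.11, adjusted p 0.0437). Uhrf1 (ENSMUSG00000001228) lies on chromosome 17, from 56303321 to 56323486 on the plus strand of GRCm38.p6. This call was lost without WT T2, WT T3, E2-KO T1, E2-KO T3, G12D/E2-KO T2 or any of the G12D libraries, and held in 11 of 20 alternatives. The count was 8 without E2-KO T2 (6 higher and 2 lower), 6 without G12D/E2-KO T1 (1 higher and 5 lower) and 3 without G12D/E2-KO T3.

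The mean G12D effect (both G12D genotypes against WT and E2-KO) had 52 of 54 members lower, with medians of -0.23 for S phase and -0.15 for mitotic genes (-0.09 without E2-KO T3), and 2 were called, where 4.93% of all genes were and 2.5% were lower. Clspn was at 53.95, 42.8 and 44.9 CPM in WT, 49.8, 51.4 and 63.2 in the E2-KO libraries, 27.0, 40.2 and 30.6 in the G12D libraries and 32.8, 41.0 and 40.9 in the double mutant. All libraries with G12D lay below all libraries without it, and the change was -0.54 (SE 0.12, adjusted p 0.0375). Fen1, the flap endonuclease, was at 86.6, 95.2 and 77.1 CPM in WT, 89.8, 102 and 78.1 in the E2-KO libraries, 63.0, 87.9 and 55.8 in the G12D libraries and 60.8, 63.8 and 71.6 in the double mutant, with a difference of -0.40 (SE 0.09, adjusted p 0.0394). DESeq2 called 9, all lower, and the shares of all genes above are those of edgeR. The count was 6 without G12D T2, 1 (Hmmr) without G12D/E2-KO T1, and 0 without WT T1, WT T3, any E2-KO library, G12D T1, G12D T3 or G12D/E2-KO T2. Fen1 was replaced by Cdc6 without WT T2 and by Hmmr with library totals alone. The call held in 11 of 20 alternatives for Clspn and 8 for Fen1.

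The interaction of both mutations called 0 of 54 by edgeR, where 0.0913% of all genes were called, with 0 at an unadjusted p under 0.05 (3.73% of all genes) and 0 by DESeq2. Pcna had the smallest p of the S phase genes (-0.49, SE 0.23, adjusted p 1), and Bub1b of the mitotic genes (-0.30, SE 0.24).

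The other anchor genes had these values over all cells. Rrm2 ran from 170 to 224 CPM in WT, 220 to 261 in the E2-KO libraries, 148 to 235 in the G12D libraries and 166 to 206 in the double mutant, where WT overlapped with every mutant and E2-KO lay above G12D/E2-KO. Mcm5 was at 81.3, 95.4 and 74.7 CPM in WT and at 109, 102 and 114 CPM in E2-KO, where every E2-KO library was above every WT library. Hells was at 75.9, 65.4 and 62.5 CPM in WT and at 85.4, 80.5 and 105 CPM in E2-KO, again without overlap. Cdc45 was at 20.8, 21.7 and 17.98 CPM in WT and at 24.3, 23.6 and 23.5 CPM in E2-KO, which did not overlap. For Mcm5, Hells and Cdc45 both G12D and G12D/E2-KO overlapped with WT. The double mutant ran from 76.5 to 106 CPM for Mcm5, 64.0 to 89.4 for Hells and 20.5 to 23.7 for Cdc45. How many of all genes separate E2-KO from WT in this way was not counted.

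Among the mitotic anchors, Birc5, the most abundant mitotic gene at 368 CPM in all cells pooled, ran from 337 to 399 CPM in WT, 380 to 431 in the E2-KO libraries, 306 to 387 in the G12D libraries and 257 to 406 in the double mutant. Top2a ran from 272 to 305 CPM in WT and 290 to 343 CPM in E2-KO, with overlap, and Mki67 ran from 174 to 185 CPM in WT and 185 to 243 CPM in E2-KO, which only just did not overlap. Cdk1 was at 102, 119 and 91.0 CPM in WT and 109, 118 and 97.6 CPM in E2-KO, and Ccnb1 at 80.7, 91.9 and 68.3 CPM and at 82.1, 89.6 and 72.4 CPM. Cdc20 was at 67.5, 80.9 and 56.7 CPM in WT, 61.5, 68.0 and 36.0 CPM in E2-KO, and 70.5, 46.2 and 44.0 CPM in G12D/E2-KO. Cdk1, Ccnb1 and Cdc20 overlapped between WT and E2-KO. Slbp was the most abundant S phase gene, at 210 CPM pooled, and Ndc80 the least abundant mitotic gene, at 14.6 CPM.

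The thinned shares were also read over all cells. Cells with 3 or more S phase genes made up 50.3 ± 4.18% for WT, 60.7 ± 1.58% for E2-KO, 47.2 ± 6.22% with G12D alone and 52.7 ± 7.72% in the double mutant. E2-KO was higher than WT by 10.4 points (3.16 points is the pooled SD of the 2 genotypes, not that of the paired differences), at 3 of 3 time points. The mean share of the double mutant was 2.34 points above that of WT, while its mean S phase sum (1853 CPM) was below that of WT (1953 CPM). Cells with 3 or more mitotic genes made up 63.0 ± 3.17%, 68.1 ± 2.35%, 59.7 ± 5.10% and 61.6 ± 2.06%. Without thinning the S phase difference of E2-KO was 5.07 points.

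The same contrasts were run within classes. Late GN still differed between libraries in Retnlg and Mmp9, from which maturity was read. Cells without Retnlg and Mmp9 were 218 of 610, 368 of 845 and 297 of 842 late GN cells in WT. They were 167 of 286, 166 of 269 and 177 of 337 in E2-KO, a larger part in each E2-KO library than in any of WT. They were 309 of 877, 444 of 754 and 343 of 900 in G12D and 291 of 1083, 472 of 720 and 143 of 316 in the double mutant, whose part was below all WT libraries at T1 and above them at T2 and T3. Values for late GN cells low in both genes follow the calls below. The Ezh2 effect was called for 33 pairs of a member and a class, with the share of all genes called given in brackets. It was called for 14 of 53 members tested in late GN (11.3%), 11 higher (6.45%) and 3 lower (4.88%), and for 11 of 54 in GMP/early GN (10.9%), 9 higher (6.04%) and 2 lower (4.88%). In ProMo 5 of 54 were called (5.6%), 2 higher (2.89%) and 3 lower (2.72%). In MEP it was 1 of 50 (1.01%), higher (0.689%), in EryP/early Ery 1 of 54 (5.97%), higher (4.08%), and in late Ery 1 of 54 (3.75%), lower (1.46%). In HSC/MPP it was 0 of 54 by edgeR (1.19%), with 8 members (14.8%) at an unadjusted p under 0.05, near the 13.8% of all genes, and DESeq2 was not run within classes. For genes called higher, the member shares in late GN and GMP/early GN lay above those of all genes, and those of the erythroid classes did not. The members were not tested as a set, nor set against genes of like abundance. The count of 33 was 60 without E2-KO T2, and 16 to 20 without WT T3, E2-KO T1, E2-KO T3, G12D T1, G12D T2 or G12D/E2-KO T2. The share of all genes called in these refits is not given, so their counts do not tell whether the members stood out.

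Uhrf1 was called in GMP/early GN, late GN and MEP. In late GN it was at 31.8, 41.2 and 35.0 CPM in WT, 51.7, 62.1 and 83.2 in the E2-KO libraries, 34.6, 43.1 and 41.2 in the G12D libraries and 47.3, 64.0 and 90.1 in the double mutant. Every library without Ezh2 was above every library with it. The change was 0.66 (SE 0.11, edgeR adjusted p 0.00065). In GMP/early GN it was at 67.6, 76.6 and 69.8 CPM in WT, 96.5, 85.1 and 142 in the E2-KO libraries, 49.5, 68.2 and 79.6 in the G12D libraries and 90.1, 108 and 121 in the double mutant, again without overlap, with a change of 0.60 (SE 0.11, adjusted p 0.00144). In MEP it was at 37.6, 52.6 and 52.2 CPM in WT, 56.6, 67.4 and 81.9 in the E2-KO libraries, 21.7, 43.8 and 41.2 in the G12D libraries and 53.2, 89.7 and 99.5 in the double mutant, with a change of 0.91 (SE 0.18, adjusted p 0.00485). The calls in GMP/early GN and late GN held in all 17 alternatives run for each.

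Anln (ENSMUSG00000036777, GRCm38.p6 chromosome 9, 22332012 to 22389188, minus strand), a scaffold of the cytokinetic ring, was called in late GN. It was at 21.6, 27.8 and 24.9 CPM in WT, 45.4, 40 and 51.9 in the E2-KO libraries, 25.2, 27.4 and 33.9 in the G12D libraries and 32.0, 59.5 and 56.4 in the double mutant. Only G12D/E2-KO T1 lay inside the range of the Ezh2-bearing libraries, and the change was 0.70 (SE 0.13, adjusted p 0.0011), held in all 17 alternatives. Pcna in late GN was at 51.7, 63.7 and 41.5 CPM in WT, 99.2, 86.0 and 95.7 in the E2-KO libraries, 84.3, 79.2 and 67.2 in the G12D libraries and 78.8, 107 and 106 in the double mutant, with an Ezh2 effect of 0.47. It was also called in GMP/early GN (0.37) and in EryP/early Ery (0.37, adjusted p 0.0417).

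In late GN the other genes called higher were Mcm4 (0.63), Bub1 (0.58), Rrm1 (0.49), Kif23 (0.44), Mki67 (0.42), Tpx2 (0.41), Mcm6 (0.40) and Top2a (0.35), and those lower were Cdc20 (-0.40), Cdca8 (-0.38) and Cdca7 (-0.34). In late GN cells with at most 5 Retnlg and Mmp9 UMIs per 10000, an alternative chosen after seeing the data, 14 of 53 were again called, with Ccnb2 in and Cdca7 out, and Uhrf1, Anln and Pcna were among them. The share of all genes called in these cells is not given, so this count does not tell whether the members stood out there. In GMP/early GN the others were Clspn (0.59), Rrm1 (0.49), Ckap2l (0.46), Mki67 (0.45), Mcm4 (0.42), Ccna2 (0.40) and Kif11 (0.40), with Ung (-0.45) and Rfc2 (-0.38) lower. In ProMo, Tpx2, an activator of Aurora A, was at 34.2, 38.3 and 29.96 CPM in WT, 59.0, 52.6 and 58.3 in the E2-KO libraries, 39.6, 28.4 and 38.1 in the G12D libraries and 51.9, 54.6 and 61.8 in the double mutant, without overlap (0.62, SE 0.14, adjusted p 0.0067). Cenpa was also higher there (0.45), and Ung (-0.79), Gins2 (-0.49) and Rfc2 (-0.46) were lower. In late Ery Tyms was lower (-0.59, adjusted p 0.0465).

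**Figure D5:**
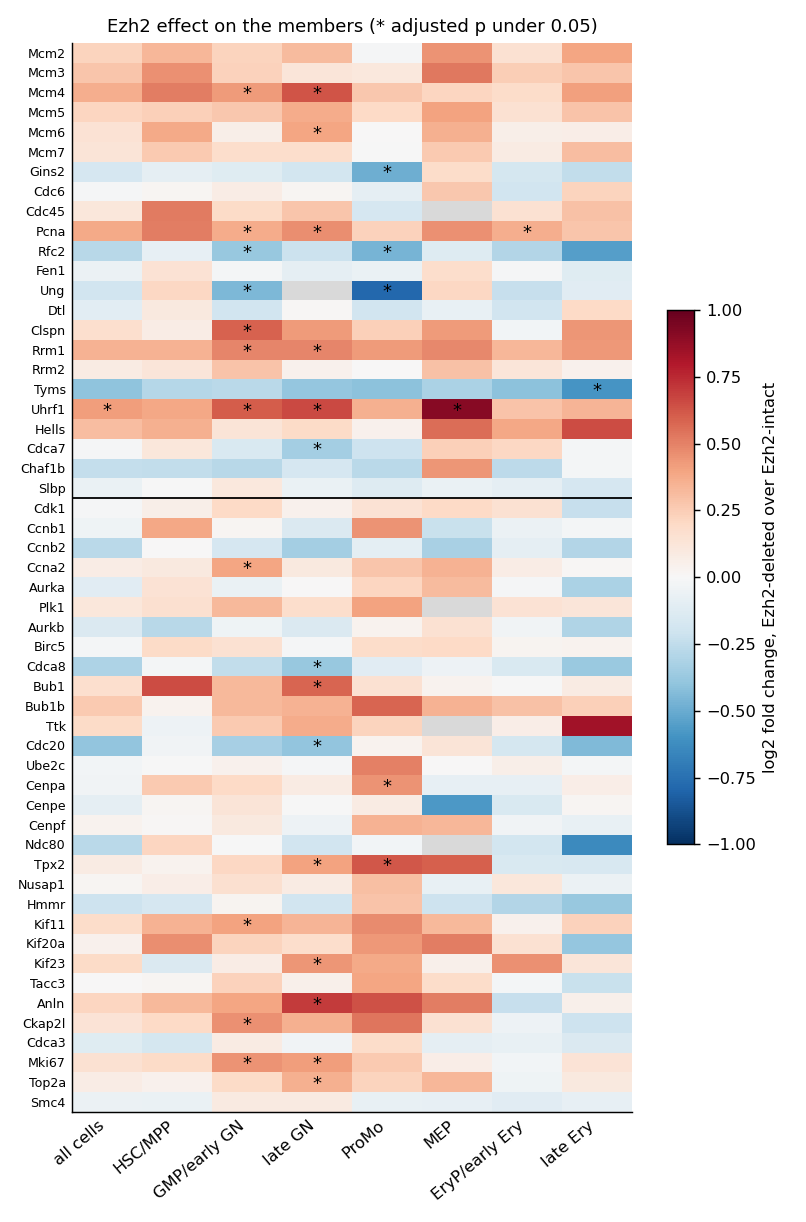
Ezh2 effect (log2, mean of E2-KO and G12D/E2-KO minus mean of WT and G12D) for each of the 54 genes over all cells and in 7 classes (stars: edgeR adjusted p under 0.05; grey: not tested; the line separates S phase from mitotic genes). Uhrf1 is starred in GMP/early GN, late GN, MEP and over all cells.

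Against WT, E2-KO had 4 members called in late GN, all higher, where 1.71% of all genes were called and 1.21% higher. Bub1 was at 16.9, 15.6 and 13.6 CPM in WT and 29.8, 33.2 and 39.3 CPM in E2-KO (1.05, SE 0.21, adjusted p 0.0094), with 19.8, 22.1 and 17.2 CPM in G12D and 22.4, 26.5 and 18.8 CPM in G12D/E2-KO. Pcna (0.75, SE 0.16, adjusted p 0.0131), Uhrf1 (0.75, SE 0.17, adjusted p 0.0177) and Anln (0.79, SE 0.19, adjusted p 0.0289) were the others. G12D/E2-KO against WT in late GN called 3, all higher (4.63% of genes, 3.01% higher), namely Pcna (0.69, SE 0.15, adjusted p 0.0101), Anln (0.76, SE 0.18, adjusted p 0.0144) and Uhrf1 (0.65, SE 0.16, adjusted p 0.0184). In GMP/early GN, where 3.09% of genes were called and 1.36% lower, it called Chaf1b lower (-0.68, SE 0.18, adjusted p 0.0421), at 20.0, 23.3 and 19.1 CPM in WT and 14.3, 13.2 and 12.0 CPM in G12D/E2-KO. Over the 7 classes E2-KO counted 19 without E2-KO T2, 12 without G12D/E2-KO T3, 2 without WT T2, 1 without WT T3 or E2-KO T1, and 0 without E2-KO T3. The double mutant counted 4 in all, and 10 without G12D/E2-KO T1, 8 without E2-KO T3 or G12D/E2-KO T3, 2 without WT T2, 1 without G12D/E2-KO T2 and 0 without WT T3. Both comparisons share the WT libraries, and the share of all genes called in these refits is not given.

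In the remaining classes these 2 comparisons called 0 members by edgeR. For E2-KO the share of all genes called there was 0.249% in HSC/MPP, 1.38% in GMP/early GN, 0.692% in ProMo, 0.306% in MEP, 2.77% in EryP/early Ery and 1.81% in late Ery, with 6 to 13 members (12 to 24.1%) at an unadjusted p under 0.05, where 8.73 to 14.5% of all genes were. For the double mutant it was 0.642% in HSC/MPP, 2.5% in ProMo, 0.918% in MEP, 3.18% in EryP/early Ery and 1.19% in late Ery, with 3 to 13 such members (6 to 24.1%, against 11.1 to 18.8% of all genes). The G12D effect called 0 members in any of the 7 classes by edgeR, with 0 to 7 members (0 to 13%) at an unadjusted p under 0.05, as 6.08 to 12.9% of all genes were, where it called 0.21% of all genes in HSC/MPP, 0.163% in GMP/early GN, 0.147% in late GN, 0.0954% in ProMo, 0.0765% in MEP, 0.342% in EryP/early Ery and 0.292% in late Ery.

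In ProMo the S phase sum was 2105 ± 128 CPM in WT, 1982 ± 57.1 in the E2-KO libraries, 1986 ± 230 in the G12D libraries and 2142 ± 216 in the double mutant. The mitotic sum was 2343 ± 132 CPM in WT, 2957 ± 317 in the E2-KO libraries, 2273 ± 23.1 in the G12D libraries and 2770 ± 7.10 in the double mutant (SD, n = 3). In late GN the mitotic sum was 3387 ± 420 CPM in WT, 3896 ± 602 in the E2-KO libraries, 3582 ± 310 in the G12D libraries and 4020 ± 460 in the double mutant, and the S phase sum was 1025 ± 108 CPM in WT, 1285 ± 59.8 in the E2-KO libraries, 1178 ± 136 in the G12D libraries and 1290 ± 229 in the double mutant. In the late GN cells without Retnlg and Mmp9 it was 1188 ± 148, 1557 ± 91.3, 1410 ± 55.6 and 1539 ± 201 CPM in the same order, where WT had the lowest mean as well.

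The time points were compared across all 4 genotypes. At T2 against T1, 0 of 54 members passed by edgeR, where 0% of all genes did, with 2 at an unadjusted p under 0.05 (3.7%, against 4.72% of all genes) and 0 by DESeq2, and the smallest p of each list was that of Rrm1 (0.32, SE 0.13) and of Cdk1 (0.24, SE 0.12, adjusted p 0.908). At T3 against T1 it was 0 of 54, 0%, 8 (14.8%, near the 13% of all genes) and 0. Tyms (-0.57, SE 0.14) and Cdc20 (-0.54, SE 0.16, adjusted p 0.367) had the smallest p of each list, both lower in every genotype, and Xist-bearing libraries make up 3 of the 4 at T3. In WT, E2-KO and G12D, sex and time at T3 cannot be told apart.

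The rest of the cycle was read from lists of 51 other replication genes, 54 other mitosis genes and 22 genes of G1 control, none of them members. Over all cells E2-KO called 1 replication gene higher (1.65% of all genes were called in either direction), E2f7, a repressing E2F factor (0.97, SE 0.20, adjusted p 0.0374), and G12D/E2-KO called 3 lower (1.99% of all genes), namely Rfc4 (-0.56, adjusted p 0.0440), Prim1 (-0.68, adjusted p 0.0453) and Rfc3 (-0.59, adjusted p 0.0454), subunits of the clamp loader and of primase. Of the mitosis genes G12D/E2-KO called Hjurp lower (-0.39, adjusted p 0.0469). Of the G1 genes it called cyclin D1, Ccnd1, higher (1.49, SE 0.21, adjusted p 0.00447) and its partner kinase Cdk4 lower (-0.62, adjusted p 0.0463). In that comparison 489 of 13143 genes were called higher.

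The Ezh2 effect, with 7.02% of all genes called, called E2f7 (0.87, SE 0.14, adjusted p 0.0048) and the G1 inhibitor Cdkn1a (1.14, SE 0.23, adjusted p 0.0178) higher, Melk higher (0.38) and Hjurp lower (-0.29). The G12D effect called 7 of 51 replication genes, all lower (2.5% of all genes were called lower), among them Dut (-0.47, SE 0.09, adjusted p 0.0318) and Nasp (-0.43), with Cenph lower (-0.38, adjusted p 0.0432) of 54 mitosis genes and Ccnd1 higher (1.04, SE 0.15, adjusted p 0.0177) of 22 G1 genes.

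The same lists were read between classes. From GMP/early GN to late GN, where 38% of all genes were called higher and 40.4% lower, 49 of 54 other mitosis genes were higher and 4 lower (median 1.07), 19 of 51 other replication genes were higher and 15 lower (median -0.01), and 10 of 22 G1 genes were higher and 8 lower (median 0.24). With library totals alone these were 33 and 7, 6 and 41, and 8 and 11. E2f2 (2.76), the histone chaperone Asf1b (1.92), the kinetochore gene Spc25 (2.03) and Hmgb2 (1.87) rose. Of the G1 genes Cdk4 (-1.996) and Cdk6 (-2.88) fell, while the inhibitor Cdkn2d rose by 3.18. From EryP/early Ery to late Ery, where 34.6% of all genes were called higher and 35.6% lower, 53 of 54 other mitosis genes were higher and 0 lower (median 1.57), 40 of 51 other replication genes were higher and 4 lower (median 0.80), and 11 of 22 G1 genes were higher and 8 lower (median 0.87). These counts rested on the scaling as well, at 30 and 8, 7 and 38, and 8 and 12 with library totals alone. Cdc25b (4.87), E2f2 (3.68), the inhibitor Cdkn1b (3.65), Fzr1 (3.31) and Rb1 (2.64) were among those higher.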

How the data were processed

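Per the labels and the study's methods, the authors aligned reads to mouse mm10 with Cell Ranger and deposited UMI counts per gene and cell, after removing cells over 10% mitochondrial UMIs and Scrublet doublets. No doublet caller was run here. Library totals were 12.6 M to 23.6 M UMIs. The gene lists and members were chosen with earlier results of these data known.

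Cells matching across libraries (cosine above 0.9 over 8000 genes, the 300.0 most abundant skipped) were counted once. Cells took the class of the highest marker score (at least 0.5, margin 0.25), which was the class of a clustering (32 clusters, 3 of them unnamed) for 90.3% of cells with a class by both. Of all cells in a tested class it was 56.8% (MEP) to 98.8% (late GN). Counts were summed per library, and per library and class, and tested in R 4.3.3 by edgeR 4.0.16, which uses limma 3.58.1: TMM, filterByExpr, robust glmQLFit, genotype and time as factors (6 residual degrees of freedom), Benjamini-Hochberg over all genes, two-sided. The 3 time points serve as replicates. With time as a factor, shifts shared by a time point are removed, and p-values are set against how genotype differences vary between time points. The Ezh2 and G12D effects average both backgrounds. Classes were compared with library as block, so those p-values are set against how class differences vary between libraries.

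Time point is the number of the labels and is the replicate block. Libraries of 1 time point deviated together (correlation of deviations over 0.1) in 11 of 18 pairs, from -0.289 to 0.540 over 5538 genes, and pairs of different time points ran from -0.401 to 0.482, nearly the same range. Alternatives were DESeq2 1.42.0, other scaling, filters, thinning to 1400 or 3000 UMIs, clusters as classes, cells as deposited, a Xist covariate, and each library left out. Shares carry no test. Named genes were 12 anchors (Mcm5, Pcna, Tyms, Rrm2, Cdc45, Hells, Mki67, Top2a, Cdk1, Ccnb1, Cdc20 and Birc5), up to 5 members with the smallest adjusted p per contrast over all cells (if none passed, the smallest p in each list), up to 3 pairs of member and class per contrast, and the most and least abundant member of each list. Names beyond these were chosen after their values were seen. Python 3.11.15 with pandas 2.3.3, numpy 2.4.6, matplotlib 3.10.9, scipy 1.17.1, scikit-learn 1.9.0 and leidenalg 0.10.2 did the rest. The edgeR step was tested on simulated data. Promoters are RefSeq windows of GRCm38.p6.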

Additional observations from a re-analysis of the deposited data

How the results depend on the processing

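The design holds time point as the replicate block. Without the block, the members called over all cells in G12D/E2-KO against WT went from 3 to 0 and in the G12D effect from 2 to 1, and within classes E2-KO went from 4 to 2, G12D/E2-KO from 4 to 2 and the Ezh2 effect from 33 to 21. With DESeq2 the all-cell counts were 1 for E2-KO, 7 for G12D/E2-KO, 8 for the Ezh2 effect and 9 for the G12D effect. The share of all genes called is given for the main fits alone. The counts of DESeq2 and of every other alternative, here and below, therefore have no background beside them. With library totals alone they were 1 for E2-KO, 1 for G12D/E2-KO and 3 for the Ezh2 effect, and 7 for G12D/E2-KO within classes. That setting was chosen after seeing the data, like the fit of only 2 genotypes, RLE factors and TMM without haemoglobin and late granulocyte genes. A Xist covariate gave 1 for E2-KO, 2 for G12D/E2-KO (Chaf1b and Fen1, without Tyms and Hmmr) and 3 for the Ezh2 effect. Leaving out G12D/E2-KO T3 gave the same counts, since that library alone sets the T3 term once the covariate is in. No T3 result is read from that fit. Cells as deposited gave 0 for G12D/E2-KO, 0 for the Ezh2 effect and 20 for the Ezh2 effect within classes. Fitting only 2 genotypes gave 1 for E2-KO and 0 for G12D/E2-KO, and leaving out haemoglobin and late granulocyte genes gave 2 for the Ezh2 effect. Clusters as classes gave 2 for G12D/E2-KO within classes. The causes were not tested.

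Between classes, library totals alone gave 8 S phase and 13 mitotic genes higher in GMP/early GN, 20 S phase genes lower in late GN, 8 mitotic genes higher in ProMo, 2 mitotic genes higher and 3 lower in MEP, and 4 S phase genes higher and 15 lower in late Ery. Tyms (-0.0913) and Cdc45 (-0.22) reversed in the late GN step and Mcm5 (-0.76) and Cdc45 (-0.15) in the late Ery step, where haemoglobin or granulocyte transcripts take up much of the UMIs. Clusters gave 0 mitotic genes higher and 19 lower in ProMo, 10 S phase genes lower in MEP, and 2 mitotic genes higher and 12 lower in MEP. For MEP, without G12D/E2-KO T2 the mitotic genes were 2 higher and 3 lower. Leaving out single libraries gave 0 to 1 calls for E2-KO, 0 to 6 for G12D/E2-KO, 0 to 8 for the Ezh2 effect and 0 to 6 for the G12D effect over all cells, 0 to 19, 0 to 10 and 16 to 60 for E2-KO, G12D/E2-KO and the Ezh2 effect within classes, 0 to 3 for T3 within classes, 3 to 9 S phase and 3 to 6 mitotic genes higher in ProMo, and 2 to 4 mitotic genes higher in MEP. Of the shares, not thinning gave 5.07 points for S phase in E2-KO, -42.45 in late GN and -47.3 in late Ery, and -16.8 points for mitotic genes in late GN. Counting 2 or 4 genes gave -3.60 and 13.2 points for mitotic genes in late GN, and 4 genes gave -7.76 in late Ery. Thinning to 1400 UMIs gave -8.60 in late Ery, and to 3000 gave 1.66 points for mitotic genes in G12D/E2-KO against WT.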
